A study of Rattus norvegicus with 4 samples.

Results

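The genes described here encode the enzymes, carriers and peroxisomal proteins of fatty acid oxidation. They were chosen by symbol from a list of 31 genes, and 29 of the 31 had an array row that carried their symbol alone, among 14506 such genes in all. By cell compartment, 18 of the 29 act in mitochondria, 9 in peroxisomes and 2 (Crat and Eci2) in both. Acaa1a and Decr2, both peroxisomal, shared their only row with another gene symbol and were not analysed here. The rule names the genes by symbol and uses no measured value beyond keeping the row with the highest mean for the 2 genes with several rows (Hadha and Pex19), but the list was drawn up with earlier results of these data known.

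Gene expression was measured in retroperitoneal adipose tissue, a visceral white fat depot, of male WNIN/Ob rats 4 months old. The groups were 2 rats of the lean phenotype and 2 of the obese phenotype, all untreated and fed stock diet, and each rat gave 1 Affymetrix Rat Gene ST array. The labels name the phenotype but no genotype or allele, so the groups are defined by phenotype alone. Values are log2 intensities, differences are obese minus lean on the log2 scale, and 4 arrays limit the precision.

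Long-chain fatty acids enter mitochondria as carnitine esters. Carnitine palmitoyltransferase 1 (Cpt1a, or Cpt1b in muscle and other tissues) makes the ester, the carrier Slc25a20 moves it across the inner membrane, and Cpt2 returns the acyl group to coenzyme A. Acyl-CoA dehydrogenases, hydratases, hydroxyacyl-CoA dehydrogenases and thiolases then shorten the chain, and the electron transfer flavoprotein carries electrons to the respiratory chain. Peroxisomes shorten very long and branched chains by a parallel route that starts with an oxidase, and pass shorter products on to mitochondria. White fat stores fatty acids more than it burns them, while skeletal muscle is rich in the mitochondrial enzymes.

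The array of lean rat 1 carried skeletal muscle transcripts. The median log2 level over 26 muscle genes was 10.44 on that array, 5.35 in the other lean rat, and 5.27 and 5.03 in obese rats 1 and 2. Lean rat 1 was the highest of the 4 arrays for all 26 of them, and the skeletal actin gene Acta1 was at 12.88 in lean rat 1 and between 6.56 and 7.67 in the others. Lean rat 2 had the narrowest distribution, with an interquartile range of 2.05 over all genes against 2.54 to 2.73 on the other arrays. Olfactory and vomeronasal receptor genes, taken as a guide to background, had a median of 3.44 on it and of 2.77 to 2.88 on the others. The 14 adipocyte genes, among them Adipoq and Fabp4, had medians of 10.01 and 10.32 in the lean rats and 10.65 and 10.85 in the obese rats. Macrophage genes had medians of 7.25 and 7.23 in the lean rats and 8.79 and 8.50 in the obese rats, and 6 of 18 rose (limma adjusted p under 0.05; 0.772% of all genes rose). In bulk tissue, fewer cells of a type cannot be told apart from less RNA per cell. The results are therefore given with and without lean rat 1.

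The genes of the trifunctional protein show how far 2 partners of one complex differed on these arrays. Hadha encodes the subunit with hydratase and long-chain hydroxyacyl-CoA dehydrogenase activity, and Hadhb the thiolase subunit. They lie head to head, and the RefSeq promoter windows of both (250 bases before to 50 after the start, build GRCr8) share 200 bases. The windows are printed 5′ to 3′ on each gene's own strand, as the sequence that the partners have in common, and that of Cpt1a is shown as the gate of the pathway. Capitals mark the shared 200 bases in the window of Hadha, and in the windows of Hadhb and Cpt1a the letters AGGTCA on either strand, the hexamer that nuclear receptors of the PPAR and ERR families recognise (none occurs in that of Cpt1a).
Hadha (chr6:31907551-31907850, + strand): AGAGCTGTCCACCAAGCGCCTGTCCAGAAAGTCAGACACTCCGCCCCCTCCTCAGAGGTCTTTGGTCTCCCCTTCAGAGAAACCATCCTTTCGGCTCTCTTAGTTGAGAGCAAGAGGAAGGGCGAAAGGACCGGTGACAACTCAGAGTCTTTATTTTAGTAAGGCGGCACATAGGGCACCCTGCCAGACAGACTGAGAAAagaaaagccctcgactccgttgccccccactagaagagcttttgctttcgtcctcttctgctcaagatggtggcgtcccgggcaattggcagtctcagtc
Hadhb (chr6:31907451-31907750, - strand): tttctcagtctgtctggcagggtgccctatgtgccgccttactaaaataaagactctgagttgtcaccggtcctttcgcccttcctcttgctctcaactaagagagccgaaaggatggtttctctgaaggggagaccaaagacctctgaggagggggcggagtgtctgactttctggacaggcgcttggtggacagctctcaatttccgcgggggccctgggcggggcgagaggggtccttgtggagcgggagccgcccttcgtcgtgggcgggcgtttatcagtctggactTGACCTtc
Cpt1a (chr1:209995910-209996209, + strand): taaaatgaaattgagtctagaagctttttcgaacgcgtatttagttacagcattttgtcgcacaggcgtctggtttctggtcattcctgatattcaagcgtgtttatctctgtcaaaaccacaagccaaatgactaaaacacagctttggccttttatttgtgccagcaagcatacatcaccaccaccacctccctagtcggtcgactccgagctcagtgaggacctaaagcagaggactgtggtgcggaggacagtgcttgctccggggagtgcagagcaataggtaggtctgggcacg
A promoter was given for 27 of the 31 listed genes. AGGTCA was found on either strand in 8 of these 27 windows (29.6%) and in 16.2% of all 33469 promoters in the RefSeq table. The windows that held it were those of Hadhb, Acadvl, Echs1 and Eci1 of the mitochondrial genes, Abcd2, Acot8 and Hsd17b4 of the peroxisomal genes, and Eci2. A pair of AGGTCA hexamers in direct repeat with 1 base between them, the PPAR response element in its ideal form, was in 0 of 27 windows and in 0.0538% of all promoters. The GC box GGGCGG was in 24 of 27 windows (88.9%), against 33.1% of all promoters. Among them were all 11 peroxisomal windows, which include those of Acaa1a and Decr2. The CCAAT box was in 11 of 27 windows (40.7%), against 37.5% of all promoters. All promoters here means those of the RefSeq table, not limited to the genes analysed on the array. These counts describe letters in a short window and say nothing about binding.

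None of the 29 genes passed limma's test at an adjusted p under 0.05, where 0.841% of all genes did. Their adjusted p ran from 0.215 (Decr1) to 0.998 (Acadl). Before adjustment, 8 of the 29 genes had a p under 0.05 with the obese rats higher and 0 with them lower, where 9.93% and 5.33% of all genes did (15.8% higher among genes of like level, defined next). The difference lay above 0 for 25 of 29 genes, against 50.1% of all genes, with a median of 0.40 against 0.00047. For 14 genes each obese array exceeded each lean array (26.4% of all genes), and for 1, Acot8, each was lower (21.3% of all genes). Among the 6574 genes whose mean log2 level lay within the range of the 29, 6.03 to 10.29, the median difference was 0.24, 69.9% of differences lay above 0, and the obese arrays exceeded the lean arrays without overlap for 40.6% and were lower without overlap for 10.7%. These are the genes of like level to which later counts are compared. They share the range of the 29 but were not matched to them in level, and were dimmer as a set. Their median levels were 7.16 and 6.93 in lean rats 1 and 2 and 7.27 and 7.34 in obese rats 1 and 2. Those of the 29 were 8.28, 7.52, 8.66 and 8.42 in the same order. The part of level in the later contrasts was not tested. An exact permutation test of 2 rats against 2 cannot give a two-sided p below 0.333 for a single gene.

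**Figure D1:**
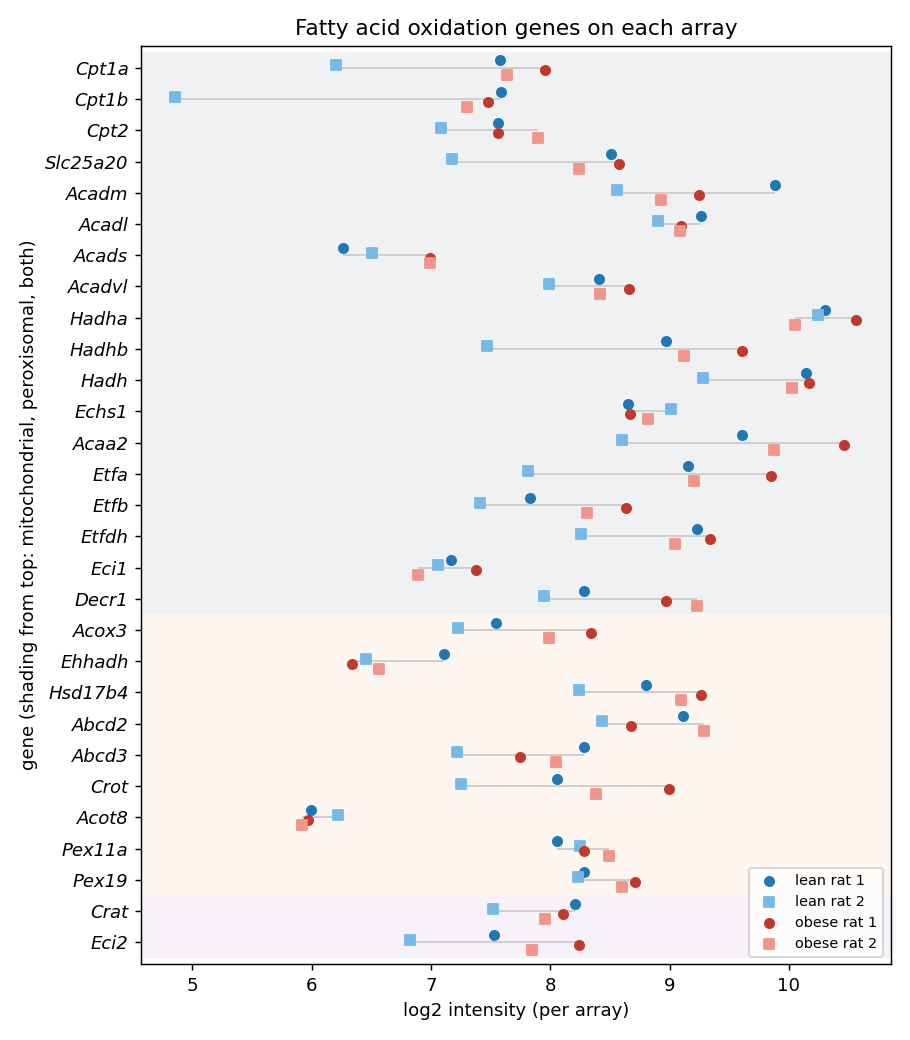
Log2 intensity of each gene (rows) on each of the 4 arrays (points; grey lines span the 4 values). Lean rat 2 (light blue squares) is the lowest array for 22 of 29 genes, and lean rat 1 (dark blue circles) often lies near the obese rats.

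Lean rat 2 was the lowest of the 4 arrays for 22 of the 29 genes, where this held for 28.7% of all genes and for 48.6% of the 6574 genes of like level. Lean rat 1 was the highest array for 6 of 29, against 17.2% of all genes and 21.0% of genes of like level. Lean rat 1 exceeded lean rat 2 for 25 of 29 genes (41.7% of all genes and 61.7% of genes of like level), with a median of 0.66 for lean rat 1 minus lean rat 2, against 0.17 over the genes of like level. The absolute gap within a group had a median of 0.66 between the lean rats and 0.31 between the obese rats. The gap between the lean rats was thus wider than the median difference between the groups, 0.40.

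The carnitine shuttle had the largest median gap between the lean rats of the roles described here, 1.36. Cpt1b was at 7.58 and 4.86 in lean rats 1 and 2 and at 7.47 and 7.30 in obese rats 1 and 2. Lean rat 2 stood alone, at a level no higher than the 95th percentile of the receptor genes on its array (5.24), and the other arrays lay close together, lean rat 1 being the highest. The difference was 1.17 ± 0.73 (SE, n = 2 per group; limma adjusted p = 0.484), a ratio of 2.25.
Cpt1a, the form found in liver and many other tissues, was at 7.58 and 6.20 in the lean rats and 7.95 and 7.64 in the obese rats. The groups did not overlap, but lean rat 1 lay only 0.22 below the obese mean while lean rat 2 lay 1.59 below it. The difference was 0.91 ± 0.45 (adjusted p = 0.377).
Slc25a20 was at 8.51 and 7.18 in the lean rats and 8.58 and 8.24 in the obese rats, so that lean rat 1 fell between the obese rats (0.56 ± 0.45, adjusted p = 0.589). Cpt2, on the matrix side, varied least of the shuttle, at 7.56 and 7.09 in the lean rats and 7.56 and 7.90 in the obese rats (0.40 ± 0.31, adjusted p = 0.574).

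The acyl-CoA dehydrogenases, which carry out the first oxidation of each round and differ in the chain length they prefer, differed among themselves. Acadm, for medium chains, was at 9.88 and 8.56 in the lean rats and 9.24 and 8.93 in the obese rats. Both obese rats lay between the lean rats, and the difference was -0.13 ± 0.45 (adjusted p = 0.916). Acadl, for long chains, was at 9.27 and 8.91 in the lean rats and 9.09 in both obese rats, also within the lean range (0.0045 ± 0.31). Acads, for short chains, was at 6.26 and 6.50 in the lean rats and 6.99 in both obese rats, and was one of 2 mitochondrial genes in which lean rat 2 lay above lean rat 1 (0.61 ± 0.26, adjusted p = 0.323). Acadvl, the membrane-bound enzyme for very long chains, was at 8.41 and 7.99 in the lean rats and 8.66 and 8.42 in the obese rats (0.34 ± 0.31, adjusted p = 0.645).

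The enzymes of the later steps divided. Hadhb was at 8.97 and 7.47 in the lean rats and 9.60 and 9.12 in the obese rats, without overlap of the groups (1.14 ± 0.49, adjusted p = 0.323). Its partner Hadha, which shares the promoter windows printed above, was at 10.30 and 10.24 in the lean rats and 10.57 and 10.05 in the obese rats, with overlap (0.04 ± 0.33, adjusted p = 0.973). A second, dimmer row of Hadha gave 7.59 and 7.10 in the lean rats and 8.40 and 7.61 in the obese rats, a difference of 0.66. The 2 rows of Hadha thus disagreed in size, and the gap between the partners was smaller by the dimmer row.
Acaa2, the thiolase of the last step, was at 9.61 and 8.60 in the lean rats and 10.46 and 9.88 in the obese rats, without overlap (1.07 ± 0.42, adjusted p = 0.289). Hadh, the dehydrogenase for medium and short chains, was at 10.14 and 9.28 in the lean rats and 10.17 and 10.03 in the obese rats, so that lean rat 2 alone was low (0.39 ± 0.37, adjusted p = 0.662). Echs1, the short-chain hydratase, ran the other way between the lean rats, at 8.65 in lean rat 1 and 9.01 in lean rat 2, with both obese rats between them at 8.67 and 8.82 (-0.09 ± 0.31, adjusted p = 0.921).

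The electron transfer flavoprotein passes electrons from the dehydrogenases to the membrane enzyme encoded by Etfdh. Its alpha subunit gene Etfa was at 9.15 and 7.81 in the lean rats and 9.85 and 9.20 in the obese rats (1.04 ± 0.48, adjusted p = 0.344). Lean rat 1 lay close under obese rat 2, and lean rat 2 stood apart. The beta subunit gene Etfb was at 7.83 and 7.41 in the lean rats and 8.64 and 8.31 in the obese rats, where the lean rats were closer to each other than to the obese rats (0.85 ± 0.31, adjusted p = 0.266). Etfdh was at 9.23 and 8.26 in the lean rats and 9.33 and 9.05 in the obese rats, with overlap (0.44 ± 0.39, adjusted p = 0.625).
Among the auxiliary enzymes for unsaturated chains, Decr1, the mitochondrial dienoyl-CoA reductase, was at 8.28 and 7.95 in the lean rats and 8.97 and 9.23 in the obese rats. It had the smallest p of the 29 genes (0.98 ± 0.31, unadjusted p = 0.0127, adjusted p = 0.215), and its difference was 1.15 without lean rat 1 and 0.82 without lean rat 2. Eci1, the enoyl-CoA isomerase, was at 7.17 and 7.06 in the lean rats and 7.37 and 6.89 in the obese rats (0.02 ± 0.29, adjusted p = 0.987).

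The peroxisomal oxidation enzymes also differed among themselves. Acox3, an oxidase for branched chains, was at 7.55 and 7.22 in the lean rats and 8.34 and 7.99 in the obese rats (0.78 ± 0.30, adjusted p = 0.285). Hsd17b4, the D-bifunctional protein, was at 8.80 and 8.24 in the lean rats and 9.27 and 9.09 in the obese rats (0.66 ± 0.33, adjusted p = 0.379). In neither gene did the groups overlap. Ehhadh, the L-bifunctional protein and a known PPAR alpha target, was at 7.11 in lean rat 1 and at 6.45, 6.34 and 6.57 in lean rat 2, obese rat 1 and obese rat 2, so that lean rat 1 alone was high (-0.33 ± 0.31, adjusted p = 0.656).
Of the proteins that bring acyl groups into or out of peroxisomes, Crot, the carnitine octanoyltransferase that exports shortened chains, had the largest difference, 1.03 ± 0.38 (adjusted p = 0.269). It was at 8.06 and 7.25 in the lean rats and 9.00 and 8.38 in the obese rats. The import transporters Abcd2 and Abcd3 overlapped between the groups. Abcd2 was at 9.11 and 8.44 in the lean rats and 8.67 and 9.29 in the obese rats (0.21 ± 0.37), and Abcd3 was at 8.28 and 7.22 in the lean rats and 7.74 and 8.05 in the obese rats (0.15 ± 0.39). The thioesterase gene Acot8 was at 5.99 and 6.22 in the lean rats and 5.97 and 5.92 in the obese rats (-0.16 ± 0.24). Its groups did not overlap, but obese rat 1 and lean rat 1 were nearly level.
In neither peroxin did the groups overlap, the obese rats being higher, though lean rat 2 and obese rat 1 were nearly level for Pex11a. Pex11a, which acts in peroxisome division, was at 8.06 and 8.25 in the lean rats and 8.28 and 8.49 in the obese rats (0.23 ± 0.29), and Pex19, the chaperone of peroxisomal membrane proteins, was at 8.28 and 8.24 in the lean rats and 8.71 and 8.60 in the obese rats (0.40 ± 0.29). A second row of Pex19 gave 0.29.
Of the genes whose products occur in both compartments, Eci2, an enoyl-CoA isomerase, was at 7.53 and 6.82 in the lean rats and 8.24 and 7.85 in the obese rats (0.86 ± 0.34, adjusted p = 0.291). Crat, the carnitine acetyltransferase, was at 8.21 and 7.52 in the lean rats and 8.11 and 7.96 in the obese rats, where lean rat 1 was the highest array (0.17 ± 0.33, adjusted p = 0.850).

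The mitochondrial and peroxisomal genes were compared by their medians, with no test. The median difference was 0.50 over the 18 mitochondrial genes (-0.13 to 1.17) and 0.23 over the 9 peroxisomal genes (-0.33 to 1.03), beside 0.24 over the genes of like level. The gap between the medians was 0.27. A related score, the gap per array between the medians of the centred values given below, varied between rats of one group (pooled SD 0.25, n = 2 per group). That SD is not the spread of the 0.27 itself. The obese arrays exceeded the lean arrays without overlap for 8 of 18 mitochondrial and 5 of 9 peroxisomal genes, where they did for 26.4% of all genes and 40.6% of genes of like level. The mitochondrial count was near the latter share. With each gene centred on its mean over the 4 arrays, the mitochondrial median was 0.098 and -0.63 in the lean rats and 0.34 and 0.16 in the obese rats. The peroxisomal median was -0.049 and -0.44 in the lean rats and 0.011 and 0.22 in the obese rats. Lean rat 2 was the lowest array in both compartments, and by these medians the obese rats ranked differently in the 2. Gene by gene, obese rat 1 exceeded obese rat 2 for 15 of 18 mitochondrial and 5 of 9 peroxisomal genes. It did so for 6596 of all 14506 genes and for 2806 of the 6574 genes of like level. The median of obese rat 1 minus obese rat 2 was 0.30 over the mitochondrial and 0.05 over the peroxisomal genes. It was -0.03 over all genes and -0.06 over genes of like level. The direction of the gap between the compartments rested on lean rat 2. Without that rat the mitochondrial median was 0.11 and the peroxisomal median 0.33, and without lean rat 1 they were 0.87 and 0.55.

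**Figure D2:**
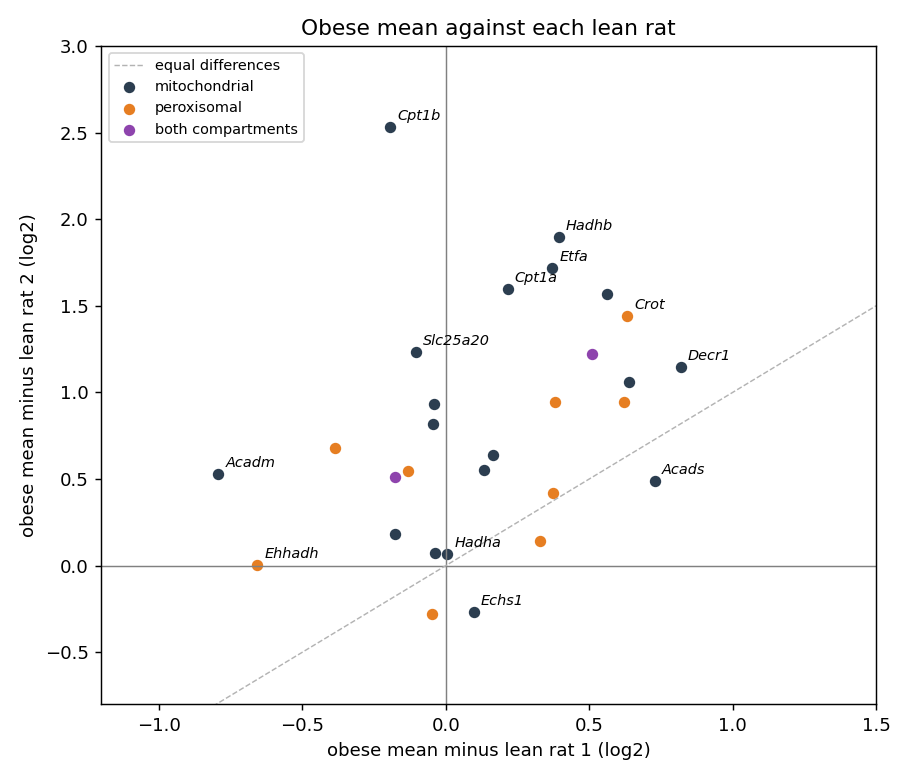
Obese mean minus lean rat 1 (horizontal axis, log2) against obese mean minus lean rat 2 (vertical axis, log2) for each gene, coloured by compartment, with both axes sharing the obese arrays. Most points lie above the dashed line of equal differences, and Cpt1b is farthest from it, at -0.19 and 2.53.

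The effect of the array with muscle transcripts was examined by leaving out lean rat 1. The remaining arrays had like levels of muscle genes (medians 5.35, 5.27 and 5.03). The lean group then held 1 rat, whose spread was assumed to equal that of the obese rats. Without lean rat 1, limma called 4 of the 29 genes higher and 0 lower, where 4.58% and 2.87% of all genes were called (7.58% higher among genes of like level). All 4 were mitochondrial. Cpt1b was at 2.53 ± 0.24 (adjusted p = 0.028), Hadhb at 1.90 ± 0.33 (adjusted p = 0.037), Cpt1a at 1.59 ± 0.28 (adjusted p = 0.036) and Etfa at 1.72 ± 0.37 (adjusted p = 0.049). In linear terms these were ratios of 5.78, 3.72, 3.02 and 3.29. That of Cpt1b rested on a lean value near background, so its size is uncertain. The next were Acaa2 (1.57, adjusted p = 0.054), Slc25a20 (1.23, adjusted p = 0.057), Crot (1.44, adjusted p = 0.059) and Eci2 (1.22, adjusted p = 0.059), which did not pass.
These calls compare 2 obese rats with 1 lean rat. The median over all 29 genes was 0.68 without lean rat 1, against 0.33 for genes of like level, and the obese mean exceeded lean rat 2 for 27 of 29 genes (46.9% of all genes and 71.0% of genes of like level). Against lean rat 1 alone the obese mean was higher for 17 of 29 genes (56.0% of all genes and 62.9% of genes of like level), with a median of 0.13, against 0.14 for genes of like level, and 0 of 29 were called (1.34% higher and 1.94% lower of all genes; lowest adjusted p = 0.204, Acads). Acadm then was at -0.79, Ehhadh at -0.66 and Cpt1b at -0.19.
The narrow distribution of lean rat 2 was examined by quantile normalization together with leaving out lean rat 1, an alternative chosen after the data were seen. The 4 genes were called again, at 2.66 (Cpt1b, adjusted p = 0.000473), 1.60 (Hadhb, adjusted p = 0.013), 1.48 (Cpt1a, adjusted p = 0.0095) and 1.44 (Etfa, adjusted p = 0.028), and so were Acaa2 (1.32, adjusted p = 0.039) and Crot (1.17, adjusted p = 0.049), where 9.05% of all genes were called higher (12.1% of genes of like level) and 3.76% lower. The medians under this setting were 0.63 for mitochondrial and 0.31 for peroxisomal genes. The part of muscle RNA in the values of lean rat 1 was not tested.

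**Figure D3:**
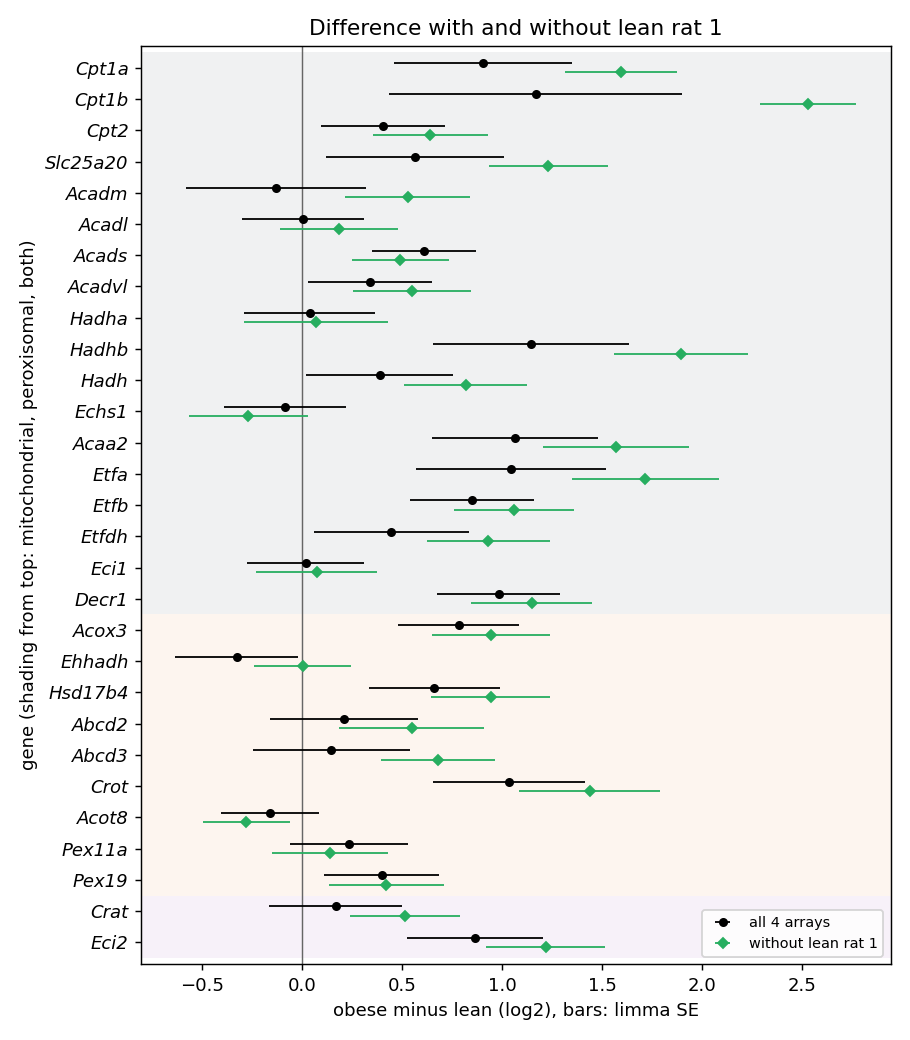
Obese minus lean (log2; bars, limma SE) for each gene over all 4 arrays (black circles) and without lean rat 1 (green diamonds). Without lean rat 1 the value of Cpt1b moves from 1.17 to 2.53 and that of Acadm from -0.13 to 0.53, while Hadha and Eci1 move to 0.07.

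Other mitochondrial pathways were set beside these genes. None of 22 genes of pyruvate entry and the tricarboxylic acid cycle and none of 47 genes of the respiratory chain and ATP synthase passed (limma; 7 and 5 higher at an unadjusted p under 0.05, where 9.93% of all genes and 15.8% of genes of like level were), and their median differences were 0.70 and 0.53. Lean rat 2 was the lowest array for 21 of 22 cycle genes and 30 of 47 respiratory chain genes (63.8%). This held for 28.7% of all genes and 48.6% of genes of like level. Without lean rat 1 the medians were 1.17 and 0.71, with 4 and 7 genes called higher (4.58% of all genes and 7.58% of genes of like level were), and without lean rat 2 they were 0.22 and 0.31. The smallest p in each was that of Dlat, a subunit of pyruvate dehydrogenase, at 1.49 ± 0.39 (limma adjusted p = 0.150), and of Ndufa3, a subunit of complex I, at 1.48 ± 0.41 (limma adjusted p = 0.171). Low values in lean rat 2 were thus also found in these lists.
Among 34 other enzymes of fatty acid and ketone body breakdown, none passed (median 0.26). At an unadjusted p under 0.05 (limma), 3 were higher, where 9.93% of all genes and 15.8% of genes of like level were. The genes named next had the smallest p of their list. Bdh1, the hydroxybutyrate dehydrogenase, was at 1.11 ± 0.25 (adjusted p = 0.103) and Mcee, of propionate breakdown, at 1.28 ± 0.33 (adjusted p = 0.143). Among 38 other peroxisomal genes none passed either (median 0.33, 4 higher at an unadjusted p under 0.05, beside the same shares of 9.93% and 15.8%). Slc25a17, the peroxisomal carrier of coenzyme A and other cofactors, was at 1.22 ± 0.29 (adjusted p = 0.118) and Pex16, of membrane assembly, at 0.75 ± 0.29. Lean rat 2 was the lowest array for 16 of these 38 genes (28.7% of all genes and 48.6% of genes of like level). Lean rat 1 exceeded lean rat 2 for 18 (41.7% of all genes and 61.7% of genes of like level), with a median gap of -0.06.

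Among 29 regulators of the pathway none passed (median 0.09, 2 higher and 1 lower at an unadjusted p under 0.05). Of all genes, 9.93% were higher and 5.33% lower at that threshold (limma). The regulators included several that were high in lean rat 1 alone. Lean rat 1 was the highest array for 12 of the 29, against 17.2% of all genes and 21.0% of genes of like level. Ppara, the nuclear receptor that drives oxidation genes in liver and muscle, was at 7.54 in lean rat 1 and at 5.03, 4.82 and 5.67 in lean rat 2, obese rat 1 and obese rat 2. The coactivator gene Ppargc1a was at 5.34 in lean rat 1 and between 3.26 and 3.94 in the others, and Acacb, the mitochondrial acetyl-CoA carboxylase whose product malonyl-CoA blocks carnitine palmitoyltransferase 1, was at 6.99 in lean rat 1 and between 4.90 and 5.24 in the others. On the 3 arrays other than lean rat 1, Ppargc1a lay under the 95th percentile of the receptor genes (5.24, 4.48 and 4.55), as did Ppara in lean rat 2, so these values are near background, and Acacb in lean rat 2 was level with it. These 3 genes were named after their values were seen. They were high in lean rat 1 alone, as the muscle genes were, but the choice itself may account for this likeness. The part of muscle RNA in their values was not tested.
Acaca, the cytosolic acetyl-CoA carboxylase, was at 8.90 and 7.73 in the lean rats and 9.83 and 10.71 in the obese rats (1.96 ± 0.47, adjusted p = 0.123, and 2.54 with adjusted p = 0.035 without lean rat 1). Ucp2 was at 1.14 ± 0.35 (adjusted p = 0.213).

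**Figure D4:**
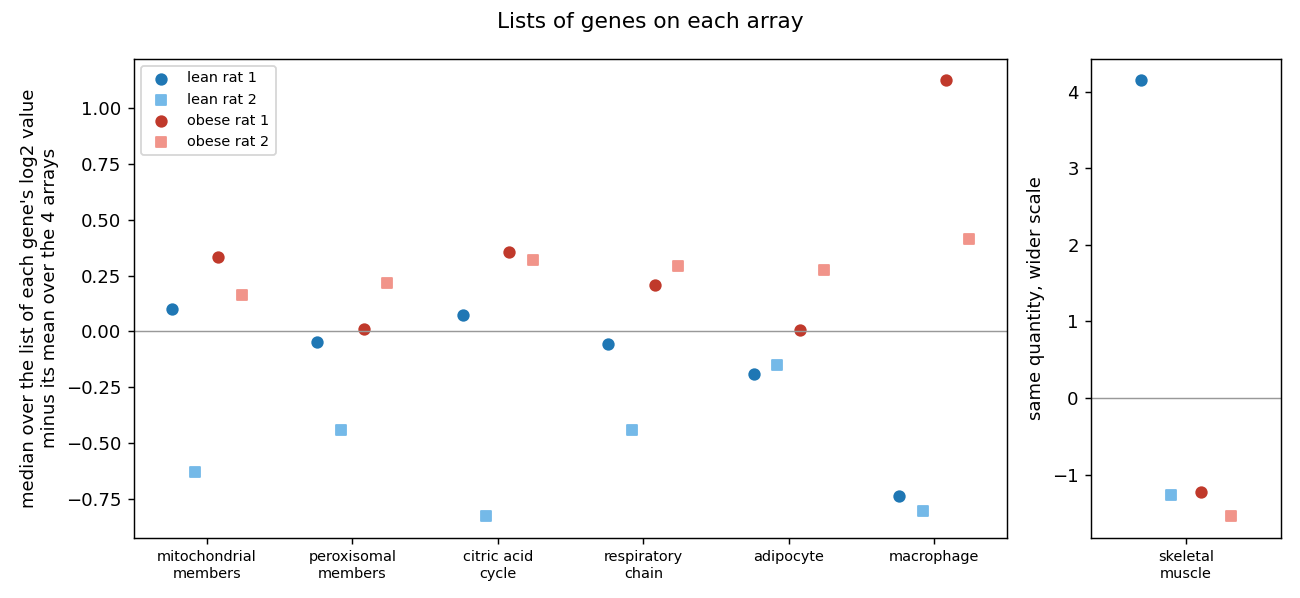
Median over each list of every gene's log2 value minus that gene's mean over the 4 arrays, for each array (points), with skeletal muscle on its own wider scale. Lean rat 2 is lowest for both sets of oxidation genes, the citric acid cycle and the respiratory chain. It is also lowest for macrophage genes, by little (-0.80, against -0.74 in lean rat 1). The muscle median is 4.15 in lean rat 1 and -1.22 to -1.54 in the others.

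Genes of other cell types were set beside the oxidation genes. Brown fat genes had medians of 4.92 and 4.88 in the lean rats and 4.75 and 4.29 in the obese rats (7 genes), and 3 of the 7 differences lay above 0 and 4 below. The brightest of them ran in different directions. Kcnk3, a potassium channel, was at 6.85 and 6.76 in the lean rats and 6.95 and 7.33 in the obese rats. Ucp1, the uncoupling protein, was at 6.89 and 4.97 in the lean rats and 5.90 and 4.17 in the obese rats. Cox8b, a respiratory chain subunit, was at 6.43 in lean rat 1 and between 4.21 and 4.49 in the others. Mesothelial genes had medians of 6.76 in lean rat 1 and 4.86 to 5.55 in the others. The medians of endothelial genes (11 genes, 7.08 to 7.41) and fibroblast genes (12 genes, 7.91 to 8.46) varied less between arrays. Of the endothelial differences, 8 lay below 0 and 3 above, with a median of -0.28. Each obese array was lower than each lean array for 5 of the 11 and higher for 1 (21.3% and 26.4% of all genes). The adipocyte median was slightly higher in lean rat 2 than in lean rat 1. Gene by gene, lean rat 1 exceeded lean rat 2 for 7 of the 14 adipocyte genes, with a median gap of -0.06. The macrophage medians were level between the lean rats (7.25 and 7.23), but single genes differed in both directions. Cd68 was at 7.77 and 8.88 in lean rats 1 and 2, and Lyz2 at 7.65 and 7.04. Lean rat 1 exceeded lean rat 2 for 7 of 18 macrophage genes and for 25 of 29 oxidation genes. The part of any of these cell types in the values of the oxidation genes was not tested.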

How the data were processed

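Total RNA from 500 mg of frozen fat per rat was labelled from 100 ng for Affymetrix arrays, per the labels' protocols. The authors deposited 1 intensity per row and array on a linear scale (2.03 to 12791.1, read from the values), and RMA was the method listed, per the submitters' processing notes. RMA usually includes a step that equalises the arrays' distributions, but the deposited values were not equal in distribution (interquartile range over genes 2.05 to 2.73 on the log2 scale, median intensity over all rows 39.9 to 44.5), so which steps were run is not known. Software, build and probe-set level: not given in the sources used here.

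Intensities were log2 transformed with no pseudocount. Rows were named by the platform annotation, where 15310 of 29214 rows had 1 symbol, 323 several and 13581 none, and only those with 1 symbol were used. Of these, 15279 matched a RefSeq gene of GRCr8 by gene ID, and 0 symbols changed. Per gene the row with the highest mean was kept (14506 genes). Groups came from the sample titles. Obese minus lean was fitted with limma 3.58.1 in R 4.3.3 (eBayes with a variance trend, all 4 arrays, no covariate), with Benjamini-Hochberg adjustment over all genes and a threshold of 0.05. The fit was tested on simulated data with independent noise of the same spread on each array. That simulation had no array with muscle transcripts or a narrow distribution and left no rat out, so it does not bear on these features. Figures used matplotlib 3.10.9.

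Members and lists were chosen with earlier results of these data known. Named genes are all members measured, the called genes or else the 2 of smallest p in each pathway list, and the brightest markers, besides those said to be chosen later. Alternatives were quantile normalization, median centring, a replicate block, the mean of a gene's rows, no variance trend, no dim genes, array weights and each rat left out. The rat numbers do not pair the rats by the labels.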

Additional observations from a re-analysis of the deposited data

How the results depend on the processing

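The count of genes called over the whole table was 122. It was 75 with quantile normalization, 327 with the rat number as a replicate block, 1859 with quantile normalization and without lean rat 1, and 268 to 1081 with a rat left out. The replicate block called 0 of the 29 oxidation genes. Deviations of same-numbered rats from their group means correlated at 0.02 across genes, and the labels do not tie the numbers to a shared source. The count of oxidation genes called was 0 to 4 with a rat left out (4 without lean rat 1) and 6 with quantile normalization and without lean rat 1. When each rat was left out in turn, the mitochondrial median difference was 0.11 to 0.87, the peroxisomal median from 0.13 to 0.55, and the gap between them from -0.21 (without lean rat 2) to 0.47. Of the 29 genes, 15 kept their sign under all 12 alternatives, but not all of these could turn a sign. The replicate block, no variance trend, no dim genes and array weights left every difference unchanged. The mean of a gene's rows could alter only Hadha and Pex19. With a rat left out, values that changed sign ran from -0.19 to 2.53 (Cpt1b), -0.10 to 1.23 (Slc25a20), -0.79 to 0.53 (Acadm), -0.18 to 0.18 (Acadl), -0.22 to 0.29 (Hadha), -0.043 to 0.82 (Hadh), -0.27 to 0.10 (Echs1), -0.041 to 0.93 (Etfdh), -0.22 to 0.26 (Eci1), -0.66 to 0.0022 (Ehhadh), -0.13 to 0.55 (Abcd2), -0.39 to 0.68 (Abcd3) and -0.18 to 0.51 (Crat). Quantile normalization turned Acadl (-0.19), Hadha (-0.12), Eci1 (-0.12) and Abcd3 (-0.017), and median centring turned Echs1 (0.013). Quantile normalization and without lean rat 1 turned Acadm (0.26), Acadl (-0.084), Hadha (-0.17), Eci1 (-0.15) and Pex11a (-0.12). Apart from the arrays left out, the cause was not tested. Median centring moved the median of all genes to 0.10 and quantile normalization to 0.05. With 4 arrays, the SE of a single gene's difference ran from 0.24 to 0.73.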
